A study of Mus musculus with 18 samples.

Results

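The mitochondrial ribosomal protein genes were taken as all protein-coding mouse genes whose symbol starts with Mrpl or Mrps followed by a number. The deposited table of 54347 genes held 78 of them, 49 named for the large subunit and 29 named for the small subunit. All 78 passed the low-count filter, among 12973 genes tested. The 5 pseudogenes that carry an Mrp symbol were left out.

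RNA came from sorted leukemia stem cells (LSCs) of the bone marrow, 7000 cells per mouse, taken 30 days after induction of leukemia in mice of the strain C57BL/6JRj. The mutant genotype was Prx1-Cxcl12-mutant (5 mice, numbered 6, 7, 8, 10 and 12), and the control genotype was Prx1-Cxcl12-wild type (4 mice, numbered 1 to 4). Each mouse had 2 technical libraries made by MARS-seq, a method that counts the 3′ ends of polyadenylated transcripts, and the mouse, with both libraries summed, was the unit of replication. Prx1 (Prrx1) is a gene of limb-bud mesenchyme whose promoter is used to target marrow stromal cells, so the genotype is named for cells of the niche and not for the sorted cells. The sources used here do not give the leukemia driver, the sorting markers, the sex or the age of the mice.

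Mitochondrial ribosomes translate the few proteins that are encoded in mitochondrial DNA, all of them subunits of the respiratory chain and ATP synthase. The ribosomal RNAs come from mitochondrial DNA, whereas every ribosomal protein is encoded in the nucleus, made in the cytosol and imported. Some of these proteins have a counterpart in the bacterial ribosome, and others are found only in mitochondria. Leukemia stem cells are known to depend on oxidative phosphorylation, and blocking mitochondrial translation has been studied as a way to target acute myeloid leukemia cells.

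The total count per mouse was 15959029 to 25485899 in the mutants and 11766467 to 16784991 in the controls, so that the mutants were on average the more deeply sequenced group. Among markers of the sorted population, 15 haematopoietic and myeloid progenitor genes summed to 9846 to 18390 CPM (counts scaled to a common library total) in mutants and 10650 to 12500 CPM in controls. Of these 15 genes only 5 were higher in mutants, among them Ctsg (mean 4564 against 2997 CPM) and Mpo (1184 against 838 CPM). Markers of mature neutrophils summed to 203 to 439 CPM in mutants and 427 to 940 CPM in controls, with Ly6g under 0.5 CPM on average. Most of that difference lay in Camp, with a mean of 139 CPM in mutants and 386 CPM in controls. Of the 9 tested neutrophil markers, 4 were higher in mutants. Markers of B and plasma cells summed to 119 to 210 CPM in mutants and 157 to 220 CPM in controls, and those of T and NK cells to 103 to 196 CPM in mutants and 89.8 to 144 CPM in controls. Erythroid markers summed to 14.2 to 58.1 CPM in mutants and 5.98 to 51.4 CPM in controls, and mast cell and basophil markers to 29.2 to 36.0 CPM in mutants and 39.7 to 57.5 CPM in controls. Megakaryocyte markers summed to 2.81 to 5.10 CPM in mutants and 5.29 to 6.16 CPM in controls. Stromal and endothelial markers summed to 38.3 to 52.4 CPM in mutants and 46.0 to 59.3 CPM in controls. Most of that sum was Pecam1, with a mean of 37.4 CPM in mutants and 43.6 CPM in controls. Cxcl12, Col1a1, Prrx1, Cdh5 and Kdr were under 0.5 CPM on average, and Col1a2 averaged 0.53 CPM in mutants and 0.39 CPM in controls. The part of these cell types in the results below was not tested.

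Genes for mitochondrial ribosomal proteins are known to be read from promoters where NRF1, ETS factors such as GABP, and YY1 bind. A window of 250 bases before to 50 bases after the start was available from RefSeq (GRCm38.p6) for 69 of the 78 genes, with 75 windows in all because some genes have several starts. In these windows both strands were searched for the letters CGCANGCG (NRF1 core), CCGGAAG (ETS and GABP), AAGATGG (YY1), CACGTG (E-box), CCAAT (NF-Y box) and GGGCGG (SP1 box). A gene was counted if any of its windows held the letters. The NRF1 core was found for 20 genes (29.0% of the 69, against 8.21% of all 32851 windows and 12.5% of 17491 protein-coding genes). The ETS and GABP core was found for 26 genes (37.7%, against 8.86% of all windows and 12.9% of protein-coding genes), and the YY1 core for 13 (18.8%, against 6.34% and 7.18%). The E-box (7.25%, against 7.15% of all windows and 8.91% of protein-coding genes) and the NF-Y box (39.1%, against 37.4% and 42.3%) were as frequent as elsewhere to within a few percentage points. The SP1 box was found for 49.3% of the members, in 35.7% of all windows and for 49.2% of protein-coding genes. A match describes the letters only.

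The stretches below are from 6 of the genes that are described with values, namely those with the smallest p whose stretch before the start held a motif and no more than 30 bases of annotated exon. Each runs 5′ to 3′ on the gene's strand up to the base before the RefSeq start, and the capitals mark the searched motifs. Mrpl48 lies at chr7:100608302-100608369 (minus strand), Mrpl34 at chr8:71464869-71464925 (plus), Mrpl2 at chr17:46646050-46646220 (plus), Mrps31 at chr8:22411286-22411339 (plus), Mrps15 at chr4:126046847-126046927 (plus) and Mrps24 at chr11:5707702-5707774 (minus).
Mrpl48: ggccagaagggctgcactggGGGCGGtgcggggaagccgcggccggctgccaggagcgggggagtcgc
Mrpl34: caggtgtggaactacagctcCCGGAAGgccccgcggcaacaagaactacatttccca
Mrpl2: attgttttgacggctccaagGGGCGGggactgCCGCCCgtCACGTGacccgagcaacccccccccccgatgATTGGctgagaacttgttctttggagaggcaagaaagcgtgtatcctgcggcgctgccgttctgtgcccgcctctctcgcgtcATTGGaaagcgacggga
Mrps31: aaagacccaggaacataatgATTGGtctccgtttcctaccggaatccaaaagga
Mrps15: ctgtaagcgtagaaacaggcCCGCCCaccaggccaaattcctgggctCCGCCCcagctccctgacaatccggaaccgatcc
Mrps24: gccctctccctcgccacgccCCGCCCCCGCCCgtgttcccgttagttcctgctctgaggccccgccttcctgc
Mrpl34 carries the ETS and GABP core 37 bases before its start. Mrpl2 holds the SP1 box, the E-box and the NF-Y box. Mrps31 shows an NF-Y box, and the stretches of Mrpl48, Mrps15 and Mrps24 show SP1 boxes alone. RefSeq lists 4 starts for Mrpl48, and the window of another of them holds the ETS and GABP core 34 bases before that start.

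No mitochondrial ribosomal protein gene differed between mutant and control LSCs at an adjusted p under 0.05 (edgeR's quasi-likelihood test with Benjamini-Hochberg adjustment over all 12973 genes), and the levels of most members were known closely enough to bound the difference. Across all tested genes, 0.0231% were called higher and 0.0462% called lower in mutants. DESeq2 called 90 of the 12973 genes and limma-voom called 9, and no member was among them. At an unadjusted p under 0.05, 3 large subunit genes (Mrpl48, Mrpl30 and Mrpl50) and 1 small subunit gene (Mrps35) lay above 0, while 4.96% of all tested genes did so. One large subunit gene, Mrpl36, lay below 0 at that threshold, as did 4.89% of all tested genes. The members' share above 0 is near this background. The groups did not overlap for 3 members above 0 (Mrpl18, Mrps35 and Mrps23) and 1 below 0 (Mrpl36), against 1.87% and 2.13% of all tested genes in those directions.

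The 95% interval of the fold change stayed within 1.25-fold in either direction for 37 of the 78 genes (25 of 49 large, 12 of 29 small). It stayed within 1.5-fold for 70 of 78 and within 2-fold for 76 of 78. The median distance from the estimate to the end of its interval was 0.22 on the log2 scale. These bounds describe the sorted population as a whole, since fewer cells of a type and less RNA per cell cannot be told apart in bulk RNA.

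**Figure D1:**
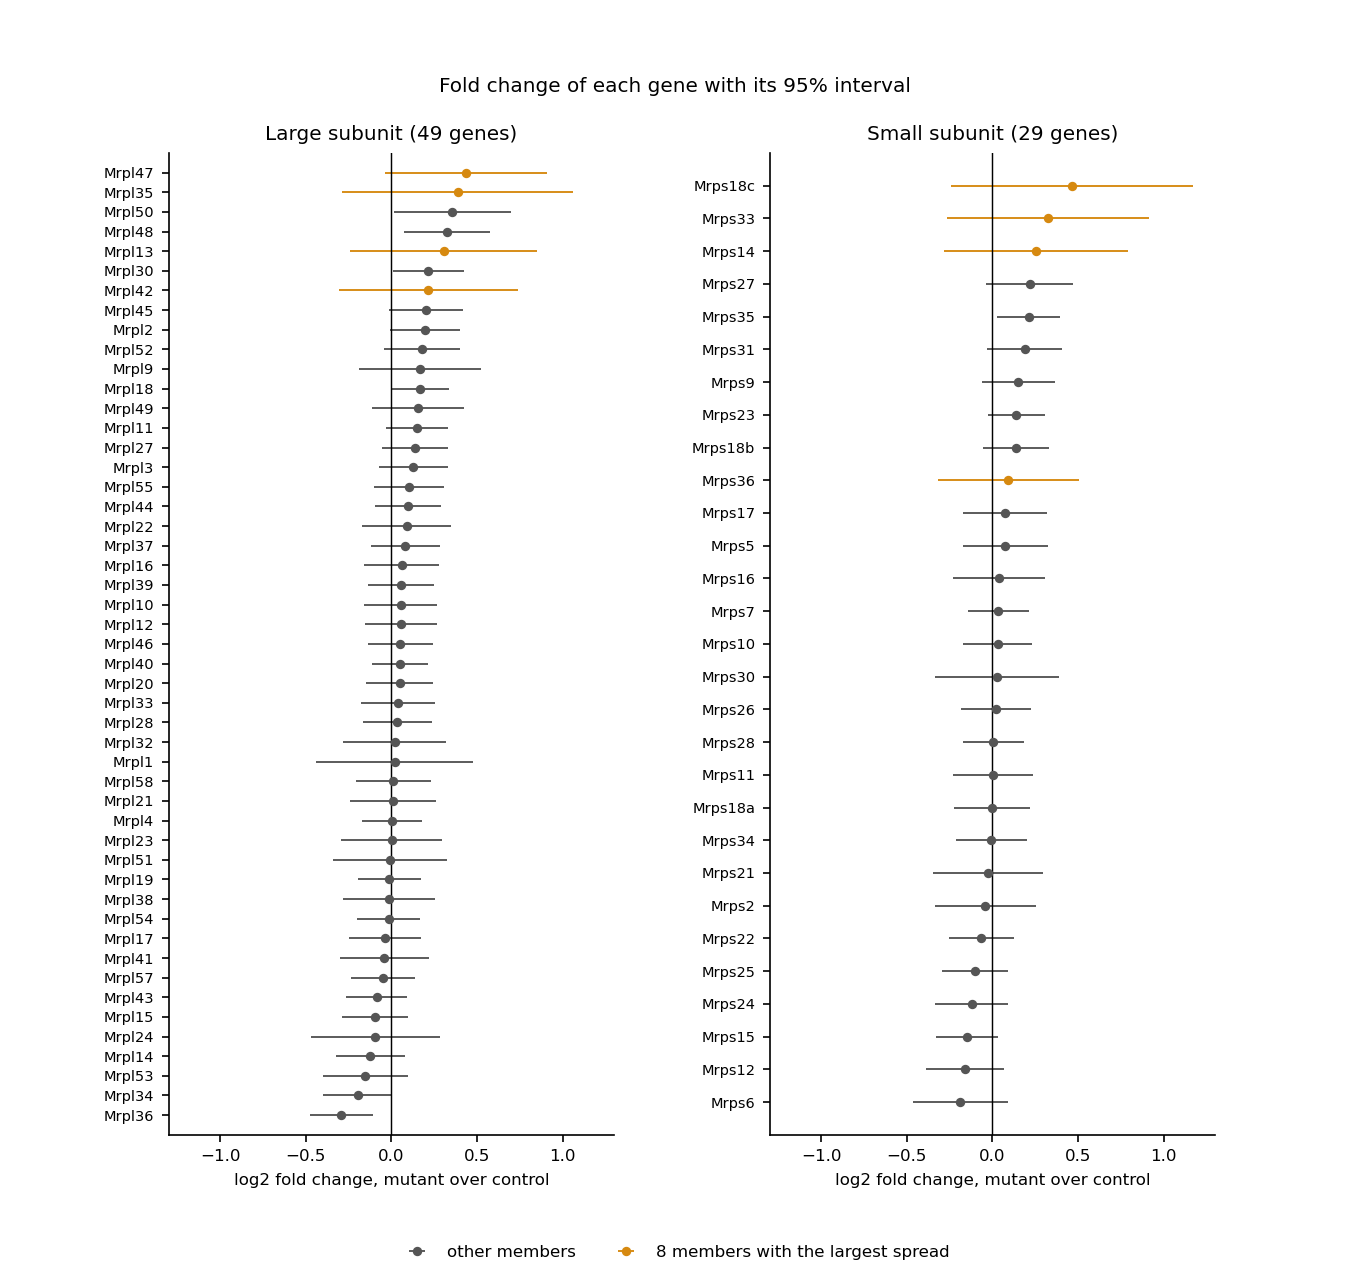
Log2 fold change, mutant over control, of each of the 49 large and 29 small subunit genes, with its 95% interval from the edgeR fit (points and bars, 5 mutant and 4 control mice). The intervals include 0 for 73 of the 78 genes, and the 8 genes with the largest spread between mice (orange) all lie to the right of 0 with wide intervals.

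The large subunit genes had a median log2 fold change of 0.05 (middle 50% of genes from -0.01 to 0.16, whole range -0.29 to 0.43), and 35 of 49 lay above 0 (71.4%). The small subunit genes had a median of 0.03 (range -0.19 to 0.46), and 19 of 29 lay above 0 (65.5%). Over all tested genes the median was 0.01 and 51.7% lay above 0. Members with a bacterial counterpart (33 of 46 above 0, median 0.04) and members found only in mitochondria (20 of 31 above 0, median 0.05) had like medians. These are descriptions of the lists, with no test.

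The summed level of the large subunit genes was 5118, 5081, 5373, 5336 and 4674 CPM in mutants 6, 7, 8, 10 and 12, against 4747, 5057, 5324 and 4867 CPM in controls 1 to 4. The small subunit genes summed to 2459, 2431, 2480, 2494 and 2117 CPM in the same mutants, against 2149, 2379, 2528 and 2197 CPM in the controls. The groups overlapped for both subunits, with mutant 12 the lowest mouse of all and control 3 among the highest. The mean sum was 5116 ± 279 CPM in mutants and 4999 ± 252 CPM in controls for the large subunit, and 2396 ± 158 CPM in mutants and 2313 ± 174 CPM in controls for the small subunit (SD, n = 5 and 4).

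**Figure D2:**
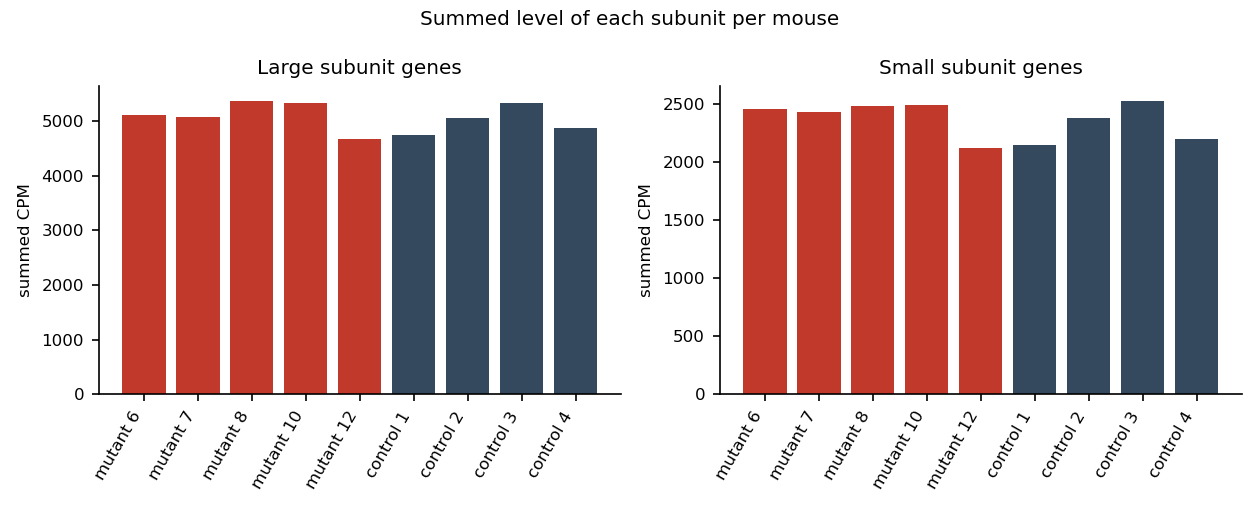
Summed CPM of the 49 large subunit genes (left) and the 29 small subunit genes (right) in each mouse, mutants in red and controls in dark blue, 1 bar per mouse. Mutant 12 (4674 and 2117 CPM) lies beside control 1 (4747 and 2149 CPM), and the other 4 mutants lie above both.

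Mrpl36 (ENSMUSG00000021607, GRCm38 chromosome 13, 73328513 to 73332178) encodes a small protein of the large subunit with a bacterial counterpart, and it had the smallest p of the members. Its level was 136, 149, 147, 151 and 151 CPM in mutants 6, 7, 8, 10 and 12, against 163, 196, 188 and 173 CPM in controls 1 to 4. Every mutant lay below every control. The mean was 147 ± 6.27 CPM in mutants and 180 ± 14.8 CPM in controls (SD, n = 5 and 4), a log2 fold change of -0.29 (SE 0.09, 95% interval -0.48 to -0.11, edgeR adjusted p = 0.307). The adjusted p ranged from 0.0656 (with DESeq2) to 0.982 over the alternative settings, and the estimate from -0.35 to -0.25. Its 5′ part overlaps Ndufs6, a complex I gene on the opposite strand.

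Among the large subunit genes above 0, Mrpl48, which encodes a protein found only in mitochondrial ribosomes, had 61.4, 58.3, 61.8, 60.4 and 41.7 CPM in mutants 6, 7, 8, 10 and 12, against 42.9, 43.5, 47.9 and 47.1 CPM in controls 1 to 4. Of the mutants, 4 lay above all controls and mutant 12 lay below all of them. The mean was 56.7 ± 8.48 CPM in mutants and 45.4 ± 2.55 CPM in controls (SD, n = 5 and 4), with a log2 fold change of 0.32 (SE 0.11, adjusted p = 0.388 by edgeR). A pseudogene copy of Mrpl48 is annotated, and the sources used here do not say how reads were divided between such copies.

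Mrpl30, a large subunit protein with a bacterial counterpart, had the same 4 mutants above all controls. Its level was 261, 279, 282, 272 and 222 CPM in mutants 6, 7, 8, 10 and 12, against 208, 238, 232 and 229 CPM in controls 1 to 4. The log2 fold change was 0.22 (SE 0.09, edgeR adjusted p = 0.474), and mutant 12 lay within the controls. Mrpl50 was measured at a low level, 11.9, 14.5, 9.81, 11.4 and 8.30 CPM in these mutants and 8.29, 8.85, 8.51 and 9.30 CPM in the controls. Its log2 fold change of 0.36 (SE 0.16, edgeR adjusted p = 0.476) had an interval of 0.02 to 0.70.

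Mrpl18 belongs to the central protuberance, where the bacterial counterpart binds 5S rRNA. Its level was 322, 323, 308, 288 and 296 CPM in mutants 6, 7, 8, 10 and 12, against 273, 272, 271 and 276 CPM in controls 1 to 4. All mutants lay above all controls, and the controls lay close together. The mean was 307 ± 15.6 CPM in mutants and 273 ± 2.19 CPM in controls (log2 fold change 0.17, SE 0.08, edgeR adjusted p = 0.507). Mrpl18 overlaps Tcp1 on the opposite strand at its 5′ end.

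Mrpl2 is a core protein near the peptidyl transferase centre. It averaged 106 ± 4.25 CPM in mutants and 92.9 ± 11.5 CPM in controls (log2 fold change 0.20, SE 0.09, edgeR adjusted p = 0.520). Control 3, at 108 CPM, lay among the mutants, which ran from 101 to 111 CPM. Mrpl34, Mrpl53, Mrpl14 and Mrpl43 were the next large subunit genes below 0. Mrpl34 averaged 152 ± 14.7 CPM in mutants and 174 ± 8.96 CPM in controls (log2 fold change -0.20, SE 0.09, edgeR adjusted p = 0.509). The log2 fold changes of Mrpl53, Mrpl14 and Mrpl43 were -0.15, -0.12 and -0.09, with adjusted p of 0.684, 0.687 and 0.749 by edgeR, and their groups overlapped.

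The stalk of the large subunit recruits translation factors and is built from Mrpl10, Mrpl11 and copies of Mrpl12. Mrpl11 averaged 31.8 ± 1.73 CPM in mutants and 28.6 ± 1.70 CPM in controls (log2 fold change 0.15, SE 0.08, edgeR adjusted p = 0.574). Mrpl10 averaged 52.2 ± 4.67 CPM in mutants and 50.3 ± 5.35 CPM in controls, and Mrpl12 averaged 147 ± 14.2 CPM in mutants and 141 ± 11.1 CPM in controls, and the groups overlapped for both genes. The 95% interval of the log2 fold change was -0.16 to 0.27 for Mrpl10 and -0.15 to 0.26 for Mrpl12.

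In the small subunit, Mrps35, a protein found only in mitochondria, had 135, 154, 138, 136 and 154 CPM in mutants 6, 7, 8, 10 and 12, against 133, 123, 125 and 115 CPM in controls 1 to 4. The groups did not overlap, although mutants 6 and 10 lay close to control 1. The mean was 143 ± 9.67 CPM in mutants and 124 ± 7.50 CPM in controls (SD, n = 5 and 4), with a log2 fold change of 0.21 (SE 0.09, adjusted p = 0.431 by edgeR). Mrps23, likewise without a bacterial counterpart, had 61.2, 71.3, 63.1, 61.9 and 64.0 CPM in mutants 6, 7, 8, 10 and 12, against 57.4, 56.0, 60.4 and 59.7 CPM in controls 1 to 4. These groups did not overlap either, with mutant 6 just above control 3 (log2 fold change 0.14, SE 0.08, edgeR adjusted p = 0.574).

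**Figure D3:**
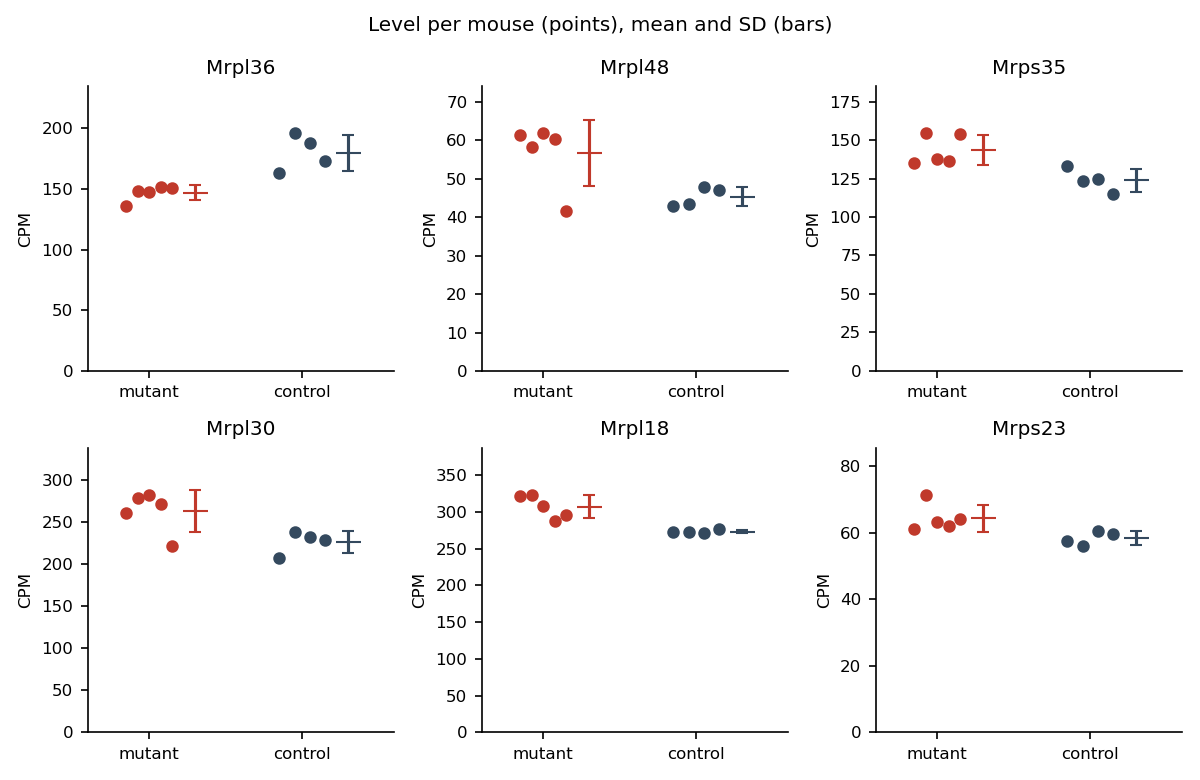
CPM per mouse (points) with the mean and SD (bars) of 6 genes in 5 mutant (red) and 4 control mice (dark blue), each axis starting at 0. The groups are apart for Mrpl36, Mrps35, Mrpl18 and Mrps23, whereas mutant 12 lies below the controls for Mrpl48 (41.7 CPM) and within them for Mrpl30 (222 CPM).

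Mrps31 and Mrps27 came next above 0. Mrps27, a pentatricopeptide repeat protein, had overlapping groups (log2 fold change 0.22, SE 0.12, adjusted p = 0.558 by edgeR), and Mrps31 averaged 28.2 ± 2.80 CPM in mutants and 24.8 ± 2.08 CPM in controls (log2 fold change 0.19, edgeR adjusted p = 0.557). Below 0 lay Mrps15, at 119 ± 3.92 CPM in mutants and 132 ± 11.3 CPM in controls (log2 fold change -0.15, SE 0.08, adjusted p = 0.583 by edgeR), and Mrps12, whose protein takes part in decoding, at 73.3 to 89.5 CPM in mutants and 82.5 to 107 CPM in controls (log2 fold change -0.16, edgeR adjusted p = 0.636). Mrps6, Mrps24 and Mrps25 followed with log2 fold changes of -0.19, -0.12 and -0.10, and adjusted p of 0.648, 0.709 and 0.733 by edgeR.

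Mrps18a, Mrps18b and Mrps18c are paralogues that occupy different places in the ribosome. Mrps18a, whose protein sits in the large subunit despite its name, averaged 66.7 ± 5.70 CPM in mutants and 66.8 ± 8.46 CPM in controls, with a 95% interval of -0.22 to 0.22 in log2 fold change. Mrps18b averaged 47.4 ± 4.33 CPM in mutants and 43.1 ± 1.96 CPM in controls (log2 fold change 0.14, SE 0.09, edgeR adjusted p = 0.630). Mrps18c, which takes the place of the bacterial S18 protein, averaged 54.3 ± 21.3 CPM in mutants and 39.4 ± 14.4 CPM in controls, and its interval of -0.24 to 1.17 was the widest upward of all members. Mrps30, also placed in the large subunit, averaged 47.2 ± 8.62 CPM in mutants and 46.4 ± 10.5 CPM in controls (95% interval -0.34 to 0.39). Mrps36, whose protein is now known as a component of the 2-oxoglutarate dehydrogenase complex, averaged 131 ± 26.9 CPM in mutants and 123 ± 31.2 CPM in controls (95% interval -0.32 to 0.50). Mrps36 has 3 annotated pseudogenes.

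The members differed in how much they varied between mice of 1 group, along a continuous range. For 8 of them, Mrps18c, Mrpl35, Mrps33, Mrpl13, Mrpl42, Mrps14, Mrpl47 and Mrps36, the pooled within-group SD of log2 CPM was above 0.35, running from 0.36 for Mrps36 to 0.67 for Mrps18c. The next members, Mrpl24, Mrps30 and Mrpl9, had 0.32, 0.30 and 0.30, so the cut of 0.35 marks no clear gap. The median of the other 70 was 0.13. These 8 genes were chosen after their values were seen. A spread above 0.35 was found for 27.5% of all tested genes.

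The 8 genes had the same mice at the low end. Mutant 12, control 1 and control 4 were the 3 lowest mice for each of the 8. This order was not particular to the 8 genes. The same 3 mice were also the lowest for some of the other 70 members, among them Mrps21, Mrps17 and Mrpl30, though not for all of them. The same mice had the lowest mean log2 CPM over the other 70 members (-0.06, -0.06 and -0.04 relative to the mean of all mice) and over the cytosolic ribosomal protein genes (-0.20, -0.19 and -0.15 relative to the control mean). Mrps33, for example, had 159, 142, 130, 127 and 65.2 CPM in mutants 6, 7, 8, 10 and 12, against 57.5, 106, 150 and 84.3 CPM in controls 1 to 4. Mrpl35 had 46.0, 52.9, 51.0, 43.7 and 17.6 CPM in these mutants, against 17.1, 36.7, 47.2 and 28.2 CPM in the controls. Low values occurred in both groups, with 1 low mouse among 5 mutants and 2 among 4 controls. All 8 log2 fold changes lay above 0 (median 0.32, median SE 0.25), while 46 of the other 70 did (median 0.03, median SE 0.10). Chchd1, a small subunit gene without an Mrp symbol, had the same 3 lowest mice, at 90.8 CPM in mutant 12, 111 CPM in control 1 and 126 CPM in control 4.

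The same 8 genes also differed between the 2 technical libraries of a mouse, most of all in mutant 7 and control 2. In mutant 7, Mrps18c had 106 CPM in the first library and 27.5 CPM in the second, a 3.86-fold difference, and all 8 genes were higher in the first. In control 2 it had 17.1 CPM in the first library and 62.8 CPM in the second, a 3.65-fold difference, and all 8 genes were higher in the second. The median fold between libraries of the 8 genes was 1.88 in mutant 7 and 2.42 in control 2, against 1.21 in mutant 7 and 1.12 in control 2 for the other 70 genes. Elsewhere the median fold of the 8 genes ran from 1.15 in control 3 to 1.35 in mutant 6. The other 70 had 1.12 in control 3 and 1.08 in mutant 6. In mutant 12 the 8 genes had 1.15 and the other 70 had 1.17. In mutant 12 and control 1 both libraries were low.

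Levels of the cytosolic ribosomal protein genes moved in the same direction in several of these libraries. Their mean log2 CPM, relative to the mean of all libraries, was 0.21 in the first and -0.03 in the second library of mutant 7, and -0.34 in the first and 0.20 in the second library of control 2. In mutant 12 it was 0.02 in the first library, where the 8 genes averaged -0.75, and -0.41 in the second, where they averaged -0.69. In the first-numbered protein-coding transcript of each gene (GENCODE M21), the median GC content was 40.3% over the last 300 bases for the 8 genes and 43.8% for the other 70, with overlapping ranges of 30.7% to 45.3% and 27.3% to 60%. The part of library preparation or of RNA quality in this pattern was not tested.

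**Figure D4:**
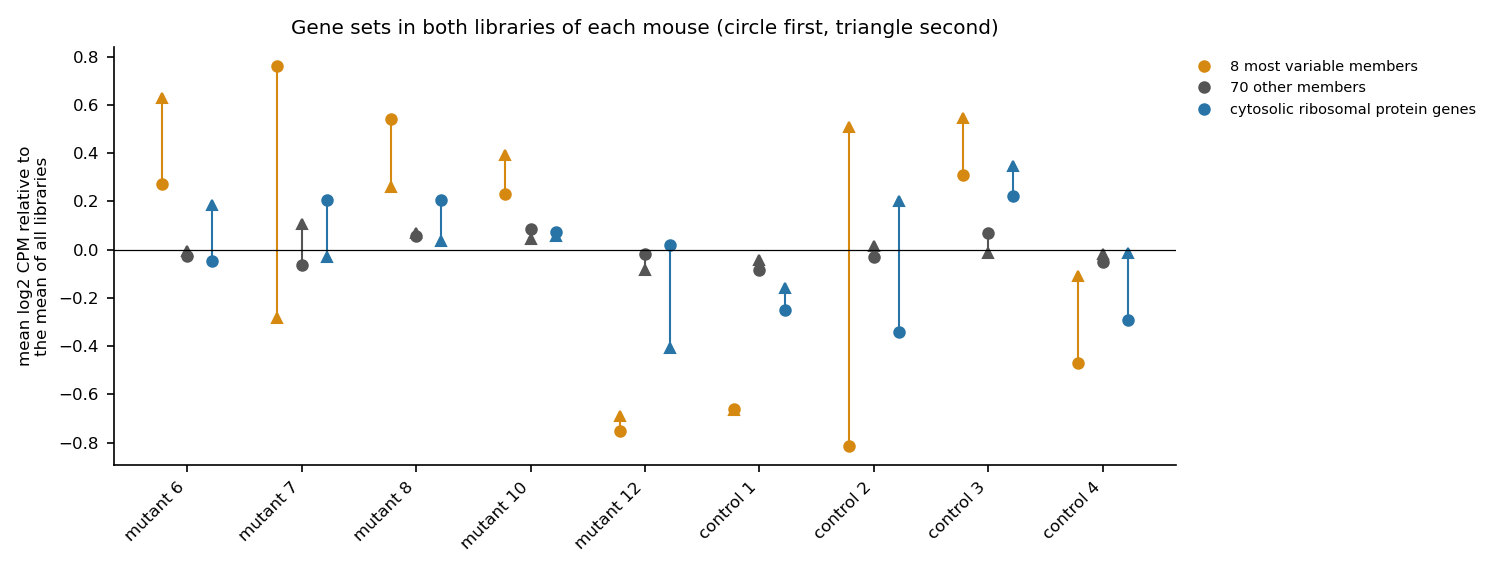
Mean log2 CPM relative to the mean of all 18 libraries for the 8 most variable members (orange), the 70 other members (grey) and the cytosolic ribosomal protein genes (blue), with the first library of each mouse as a circle and the second as a triangle, mutants on the left. The 8 genes run from -0.81 to 0.76 and part the libraries of mutant 7 and control 2, while the other 70 stay between -0.09 and 0.11.

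Over all members, the median SD between the 2 technical libraries of a mouse was 0.18 in log2 CPM. The median SD between mice of 1 group, on the mean log2 CPM of both libraries, was 0.14. The first value is for a single library and the second for a mean of 2, so they are not on the same basis. Fitted on the first libraries alone, 8 of 49 large subunit genes lay above 0 at an unadjusted p under 0.05, against 4.72% of all genes tested in that fit, and on the second libraries alone 1 did, against 4.89%. Without mutant 12 there were 10 such genes, against 6.28% of all genes tested. With the log2 total count as a covariate there were 0, against 1.97%, the median log2 fold change of the large subunit was -0.02 and 23 of 49 genes lay above 0. None of these fits called a member.

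The other components of mitochondrial translation showed like values, and none was called. The lists were described by counts and medians, without a test. The 5 ribosome subunits without an Mrp symbol (Dap3, Ptcd3, Chchd1, Aurkaip1 and Gadd45gip1) all lay above 0, with a median of 0.12. Dap3, a GTP-binding protein of the small subunit, averaged 60.3 ± 5.09 CPM in mutants and 55.5 ± 3.94 CPM in controls (edgeR adjusted p = 0.680), and Ptcd3 averaged 31.0 ± 2.80 CPM in mutants and 27.5 ± 5.03 CPM in controls (edgeR adjusted p = 0.670).

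Of 13 tested translation factors, 9 lay above 0 (median 0.08), 2 of them at an unadjusted p under 0.05, against 4.96% of all tested genes. Gfm1, the mitochondrial elongation factor that moves the ribosome along the mRNA, had 37.7, 46.7, 36.8, 42.1 and 42.7 CPM in mutants 6, 7, 8, 10 and 12, against 31.8, 31.8, 32.0 and 33.7 CPM in controls 1 to 4. All mutants lay above all controls, and the log2 fold change was 0.35 (SE 0.09, 95% interval 0.15 to 0.55, edgeR adjusted p = 0.254). Mtrf1, a release factor, averaged 16.9 ± 2.40 CPM in mutants and 13.4 ± 1.38 CPM in controls (log2 fold change 0.33, edgeR adjusted p = 0.410).

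Of 31 tested genes for assembly and rRNA processing, 23 lay above 0 (median 0.06). The GTPase gene Mtg1 averaged 39.3 ± 3.31 CPM in mutants and 34.1 ± 1.88 CPM in controls (log2 fold change 0.20, edgeR adjusted p = 0.473), and the helicase gene Ddx28 averaged 19.6 ± 1.87 CPM in mutants and 16.03 ± 2.66 CPM in controls (log2 fold change 0.29, edgeR adjusted p = 0.488). Of 20 genes for mitochondrial aminoacyl-tRNA synthesis, 15 lay above 0 (median 0.07). Iars2, which charges tRNA with isoleucine, averaged 50.5 ± 5.99 CPM in mutants and 40.3 ± 3.79 CPM in controls without overlap (log2 fold change 0.33, edgeR adjusted p = 0.345). Vars2, which charges tRNA with valine, averaged 10.3 ± 0.905 CPM in mutants and 12.4 ± 1.91 CPM in controls (log2 fold change -0.27, edgeR adjusted p = 0.529).

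Of 11 genes for mitochondrial transcription and mRNA stability, 6 lay above 0 (median 0.01), with Polrmt, the mitochondrial RNA polymerase, at 0.18 and Tefm, an elongation factor, at 0.15 in log2 fold change (adjusted p of 0.594 and 0.774 by edgeR). Of 8 tested transcriptional regulators of mitochondrial protein genes, 6 lay above 0 (median 0.06). Yy1 averaged 90.5 ± 6.34 CPM in mutants and 82.2 ± 10.9 CPM in controls (edgeR adjusted p = 0.680), and Esrra averaged 39.3 ± 9.88 CPM in mutants and 44.7 ± 6.51 CPM in controls (edgeR adjusted p = 0.726). Ppargc1a had 0 counts in every mouse, where 3 counts would correspond to 0.118 CPM in the deepest mouse and 0.255 CPM in the shallowest.

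The RNAs of mitochondrial DNA were measured less closely. The 12S rRNA gene mt-Rnr1 averaged 13.8 ± 4.78 CPM in mutants and 15.5 ± 1.04 CPM in controls, and the 16S rRNA gene mt-Rnr2 averaged 77.2 ± 14.6 CPM in mutants and 74.5 ± 7.76 CPM in controls (adjusted p of 0.835 and 0.924 by edgeR), in libraries made from polyadenylated RNA. All 12 tested protein genes of mitochondrial DNA lay below 0 (median -0.39, median SE 0.37), with mt-Nd2 at -0.62 and mt-Nd5 at -0.33 (adjusted p of 0.598 and 0.600 by edgeR). Mutant 7 was low, with a sum of 653 CPM over these genes, against 1643 to 2111 CPM in the other mutants and 1482 to 2528 CPM in the controls.

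Set beside lists outside mitochondrial translation, the members lay near the complex I and cytosolic ribosomal protein genes. Of 36 nuclear-encoded complex I genes, 27 lay above 0 (median 0.06), and of 81 cytosolic ribosomal protein genes, 50 did (median 0.04). Cell division genes lay further from 0, with all 28 above it (median 0.21) and 8 above it at an unadjusted p under 0.05, against 4.96% of all tested genes. This list was included because cell division genes were already known to differ, so its counts are a description and no independent support. Aurkb averaged 174 ± 8.43 CPM in mutants and 138 ± 16.7 CPM in controls (log2 fold change 0.33, edgeR adjusted p = 0.307), and Top2a averaged 331 ± 19.3 CPM in mutants and 270.4 ± 22.2 CPM in controls (log2 fold change 0.29, edgeR adjusted p = 0.323). The part of cell division in the members' values was not tested.

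**Figure D5:**
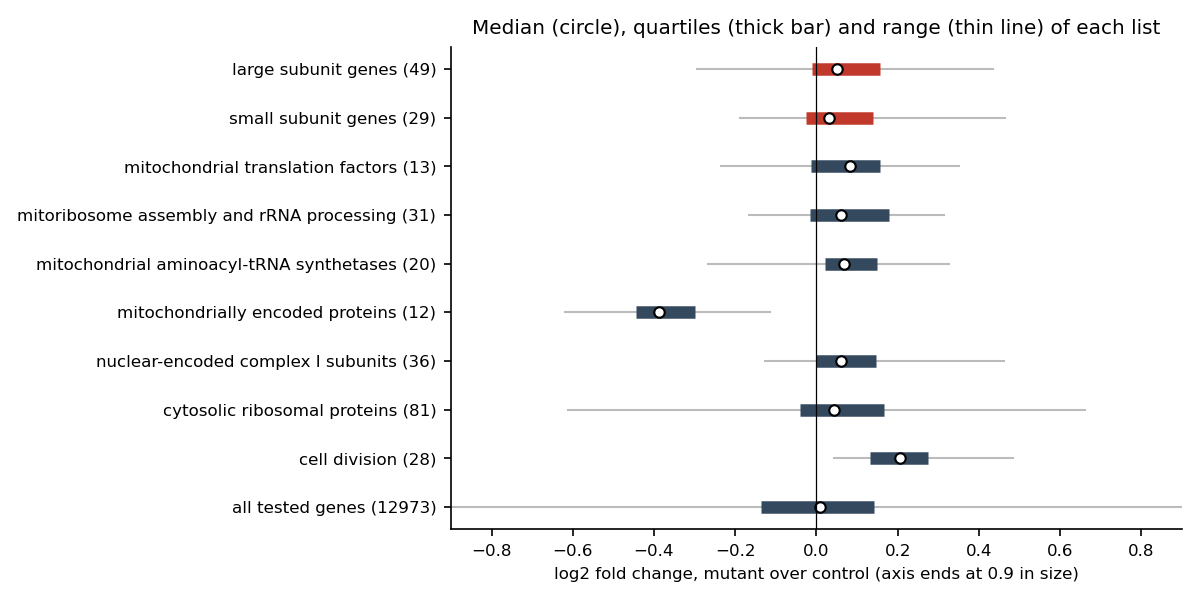
Log2 fold change, mutant over control, over the tested genes of each list, with the median (circle), the quartiles (thick bar) and the range (thin line, cut at the axis ends for all tested genes), members in red and the number of genes in brackets. The large (median 0.05) and small subunit genes (0.03) lie near the median of all genes (0.01), the mitochondrially encoded genes at -0.39 and the cell division genes at 0.21.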

How the data were processed

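The authors deposited 1 table of estimated counts, 54347 genes by 18 libraries, of which 11.35% of values were not whole. Salmon 1.3, bcl2fastq, FastQC and GRCm38 are named in the submitters' processing notes. The annotation, strand setting and use of molecular identifiers were not given in the sources. The first 18 characters of each ID were matched to GENCODE mouse release M21 on GRCm38, which gave 54094 symbols.

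Counts of the 2 libraries of each mouse were added and then rounded. Library totals were 3825500 to 15071673. Genes were tested in all 9 mice with edgeR 4.0.16 in R 4.3.3 (filterByExpr, minimum count 10, TMM factors, quasi-likelihood F-test, 2-sided, no covariate), with Benjamini-Hochberg adjustment over 12973 genes and a threshold of 0.05. The SE is the log2 coefficient over the square root of F. CPM values use TMM factors. Counts of 3′ ends do not scale with length, and levels were not compared between genes. Nothing says whether mice were littermates, and mouse numbers pair no groups. The step was tested on simulated data.

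Another gene overlaps 42 members, and it covers the 3′ end of 17, where counts may hold reads of both. For 5 of these the other gene lies on the same strand, among them the named members Mrpl2, Mrpl53 and Mrps6. Named members were, per subunit, the 5 with the smallest p above and below 0, those whose groups did not overlap, the Mrps18 paralogues, Mrps30, Mrps36 and the stalk genes; of the other pathway lists, the 2 genes with the smallest p and both rRNA genes; for complex I and the cytosolic ribosome, counts and medians. Printed promoters followed p, and 12 named members were passed over for exonic bases. The members and lists were chosen with earlier results of these data known. Mtrfr and Prorp had no match. Alternatives used DESeq2 1.42.0, limma 3.58.1, other scalings and filters, single libraries, mouse as a random effect, total count as a covariate, thinned counts, a threshold of 0.1, subunits by structure, and leaving out mice. Leaving out mutant 12 with control 1, and leaving out the 8 most variable members, were alternatives chosen after seeing the data.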

Additional observations from a re-analysis of the deposited data

Results flagged for a closer look

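In 5 of 58 groups of mice checked, 1 mouse lay far from the others of its group by Dixon's criterion, which chance alone meets in about 1 in 20 groups. Mutant 12 was apart from the other mutants in 3 of them. Mrpl48 was at 41.74 CPM in mutant 12, against 58.3 to 61.8 CPM in the other mutants. Mrps36 was at 84.2 CPM in mutant 12, against 134 to 150 CPM in the other mutants. The small subunit genes summed to 2117 CPM in mutant 12, against 2431 to 2494 CPM in the other mutants. Mrpl36 was at 135.9 CPM in mutant 6, against 147 to 151 CPM in the other mutants. Mrps23 was at 71.32 CPM in mutant 7, against 61.2 to 64.0 CPM in the other mutants.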

How the results depend on the processing

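No member was called under any of the 26 alternative settings, which included a threshold of 0.1 for the main edgeR fit. That threshold was not combined with the other tests. With DESeq2 the adjusted p of Mrpl36 was 0.0656, above 0.05 but under 0.1. The median log2 fold change ran from -0.02 to 0.09 for the large and from 0.0003 to 0.08 for the small subunit. With mice left out in turn, the large subunit had 1 to 10 genes higher and 1 to 2 lower at an unadjusted p under 0.05, the small subunit 0 to 3 higher and 0 to 1 lower, against 3, 1, 1 and 0 with all mice. The 10 came without mutant 12, where 6.28% of all tested genes were higher at that threshold. Over all fits this share ran from 1.97% to 6.28%. The large subunit count of higher genes was 8 with the first libraries alone, 1 with the second, 6 with mouse as a random effect, 5 with the technical number added as a replicate block, 0 with the total count as a covariate (where 23 of 49 genes lay above 0) and 6 without mutant 12 and control 1. The count of lower genes was 2 with DESeq2, limma-voom, RLE factors, a mean of at least 10 CPM, either library alone, the covariate, and without mutant 12 and control 1. The small subunit count of higher genes was 0 with library totals alone, the second libraries or the covariate, and 2 with the first libraries or without mutant 12 and control 1.

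Of 27 named members, 20 kept their sign in every fit, and the estimates that changed sign had an adjusted p of 0.776 or more. With mice left out in turn, Mrps18a ran from -0.051 to 0.075, Mrps30 from -0.11 to 0.113, Mrps36 from -0.033 to 0.241 and Mrpl10 from -0.0119 to 0.106. Mrps18a was 0.0012 with limma-voom, 0.0077 without the low-count filter, 0.0944 with the second libraries, 0.0045 with thinned counts and 0.0359 without the first library of mutant 7. Mrps30 was -0.0116 with library totals alone and -0.0485 with the first libraries. Mrpl10 was -0.0675 with the first libraries, and Mrpl53 was 0.0249 with the second. Mrps36 was -0.212 with the second libraries and -0.28 with the covariate, where Mrps18c was -0.248 and Mrpl12 -0.0646. The causes were not tested. Mrpl1 had the fewest counts, at a mean of 2.96 CPM in mutants and 2.93 CPM in controls. Its 95% interval of -0.44 to 0.48 in log2 fold change leaves differences of either sign open. The interval is not a limit of detection. No paired analysis was possible because mouse numbers are not shared between the groups.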
